A study of Chlorocebus aethiops with 8 samples.

Results

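Polysomal RNA was compared with total cytoplasmic RNA in COS cells, a line of African green monkey kidney cells transformed with SV40, over both siRNA treatments of the series. All 8 arrays of the series' 8 were used, chosen by their titles: 4 of polysomal RNA and 4 of cytoplasmic RNA. The arrays form 4 pairs, each holding the polysomal and the cytoplasmic array of 1 siRNA and 1 replicate number. For each gene the log2 ratio of polysomal over cytoplasmic intensity was taken within each pair and averaged over the 4 pairs. The question was which mRNAs were rich or poor in polysomes whichever siRNA the cells received. Per the labels, cells on 7 plates of 100 mm were transfected with siRNA at 0.5 nM, kept 4 h in serum-free medium and 24 h in 10% serum, split, and transfected a second time. In 2 of the pairs the cells had received scrambled control siRNA. In the other 2 they had received siRNAs to RNA helicase A (RHA, encoded by DHX9), aimed at nucleotides 2701 to 2721 and at nucleotides 2784 to 2803 of its human coding sequence. Lysates were separated on sucrose gradients, and 25 ng of total RNA per array was amplified and labelled with biotin. The probes are those of the rhesus macaque, a related species, so a mismatch to a green monkey transcript can lower a signal. The arrays of replicate number 1 are called set 1 and those of number 2 set 2, and values are given in the order set 1, then set 2.

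Polysomes are mRNAs that carry several ribosomes, and they sediment deeper in a sucrose gradient than free mRNA or single ribosomes. The ratio of an mRNA's polysomal to its cytoplasmic level is a common measure of how much of it is engaged in translation. Messages of ribosomal proteins carry a 5′ terminal oligopyrimidine tract, through which growth signals move them on and off polysomes. Messages for secreted and membrane proteins are translated on the endoplasmic reticulum and may be lost or kept depending on how cells are lysed. Since every array received the same mass of RNA, the ratios here are relative to the average message and do not show how much RNA was in polysomes in all. In bulk RNA, fewer cells that hold a message and less of it per cell cannot be told apart.

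Median intensity lay between 19.3 and 20.8 over the 8 arrays. Arrays of the same set correlated across probe sets with a Pearson's r of 0.931 to 0.987, and those of unlike sets with 0.814 to 0.867. In set 1 the cytoplasmic array under control siRNA was the least like its neighbours (median r 0.949), where each of the others reached at least 0.967. Its 3′ probe sets for actin, GAPDH and elongation factor EF1A exceeded the matching 5′ probe sets by a mean log2 of 4.07, while its polysomal partner had 2.54, so that this 3′–5′ difference was 1.53 lower in the polysomal array. In the other 3 pairs the 3′–5′ difference was higher in the polysomal array, by 0.32 in the control pair of set 2, 0.72 in the RHA pair of set 1 and 0.24 in the RHA pair of set 2. A larger 3′–5′ difference is a usual sign of shorter cDNA, and its part in the results below was not tested. Vimentin (VIM, mean intensity 4909), aquaporin 1 (AQP1, 1359), EPCAM (339), PAX8 (86.3) and keratin 8 (KRT8, 79.5) were above the limit for testing, an intensity of 19.9. UMOD, LRP2, PAX2, CDH1 and the leukocyte gene PTPRC were below it, so that several genes of kidney tubules were near background in these cells. CD14 (21.9) was just above it. Of the genes with a probe set, 11 of 19 kidney tubule genes and 4 of 12 leukocyte genes were above the limit. The summed intensity of 19 kidney tubule genes was 2325 to 3951 in polysomal and 2458 to 3600 in cytoplasmic RNA, so the fractions overlapped. DHX9, the target of the RHA siRNAs, had 359 and 477 under control siRNA and 97.2 and 269 under RHA siRNA in polysomes. In the cytoplasm DHX9 had 244 and 342 under control siRNA and 130.1 and 254 under RHA siRNA, so that each RHA array was below the control array of its fraction and set.

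No probe set was called different between polysomal and cytoplasmic RNA. With limma and Benjamini-Hochberg adjustment over the 26383 probe sets tested, 0 were higher (0% called) and 0 were lower (0% called) at an adjusted p under 0.05, and the smallest adjusted p was 0.856. At an unadjusted p under 0.05 there were 1165 probe sets (4.42%), 733 higher in polysomes (2.78%) and 432 lower (1.64%), where 1319 would be expected with no difference anywhere. The median standard error of the mean log2 ratio was 0.20, and the median 95% confidence interval reached 0.44 to either side, or 1.36-fold. That interval is not adjusted for the number of probe sets tested, and mean ratios well beyond it were not called either. The absence of calls thus does not show that the fractions were alike. The count was 0 in each direction under every alternative but 2: set 2 alone gave 3 higher and 15 lower, and leaving out the control pair of set 1, a choice made after seeing the data, gave 1 lower. No label says that the replicate numbers were separate cultures, and a p-value here reflects only how far these arrays spread. Mean ratios were small: the 10106 genes tested, each by its brightest probe set, had a median log2 ratio of 0.071, with 10th and 90th percentiles of -0.20 and 0.33. Mean ratios of 2-fold or more were seen in 13 probe sets upward (0.0493%) and 11 downward (0.0417%), of which 2 and 8 kept that sign in 4 of 4 pairs.

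The 4 pairs differed much more from each other than these means show. In the control pair of set 1, 2597 probe sets were higher in polysomes by 2-fold or more and 148 lower by as much. The control pair of set 2 had 53 and 135, the RHA pair of set 1 had 332 and 509, and the RHA pair of set 2 had 515 and 174. The standard deviation of the log2 ratios over probe sets was 0.62 in the control pair of set 1, against 0.33, 0.45 and 0.42 in the others. As a description, Pearson's r between the ratios of 2 pairs over the 26383 probe sets lay between -0.20 (control of set 1 and RHA of set 1) and 0.27 (control of set 1 and RHA of set 2), and the 2 control pairs had -0.044. Probe sets within an array share its labelling and are not independent replicates.

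**Figure D1:**
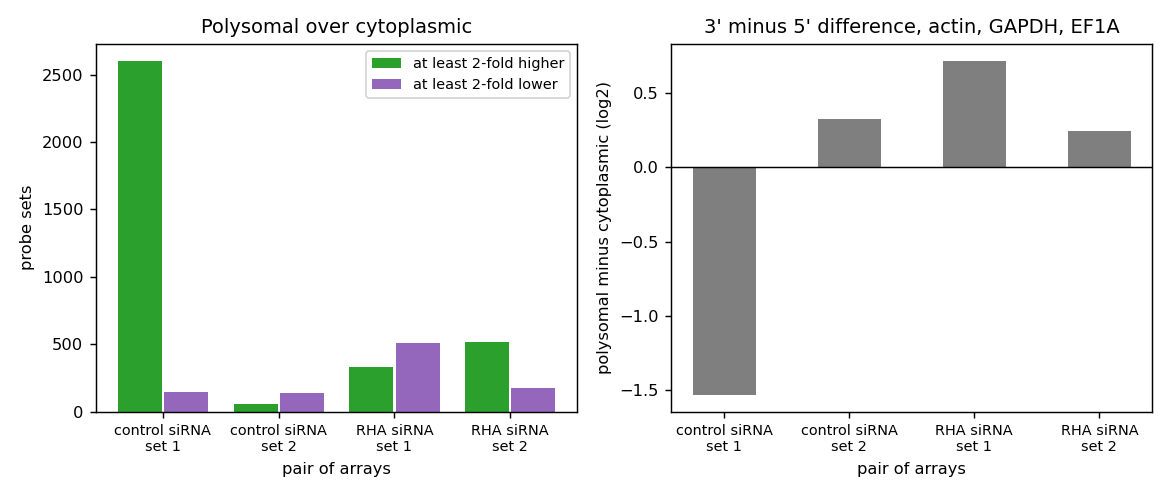
Left, the number of probe sets (of 26383) whose intensity was 2-fold or more higher or lower in polysomal than in cytoplasmic RNA, for each of the 4 pairs of arrays; right, the change from cytoplasmic to polysomal array in the mean log2 excess of 3′ over 5′ probe sets for actin, GAPDH and EF1A. The control pair of set 1 has 2597 probe sets at least 2-fold higher and is the only pair whose 3′–5′ difference was lower in the polysomal array, by 1.53 on the log2 scale.

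Over genes, 956 (9.46%) were higher in polysomes in 4 of 4 pairs and 571 (5.65%) were lower in 4 of 4, and 63.2% had a mean ratio above 0. This balance depended on the scaling: after quantile normalization 518 genes (5.13%) were higher and 760 (7.52%) lower in 4 of 4 pairs, and after median centring of each array 1318 (13%) and 386 (3.82%). Without the control pair of set 1, 1606 genes (15.9%) were higher and 1000 (9.9%) lower in 3 of 3 pairs. At unadjusted p under 0.05, 231 genes (2.29%) were higher and 105 (1.04%) lower. Of the 26383 probe sets, 2287 (8.67%) were higher and 1662 (6.3%) lower in 4 of 4 pairs, and 228 (0.864%) had polysomal arrays that did not overlap with the cytoplasmic arrays.

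Among the genes with the smallest p and 1 sign in 4 of 4 pairs, 12 were higher in polysomes, with mean log2 ratios of 0.54 to 0.93, and 12 were lower, with -0.52 to -0.88. Every one of these 24 had an adjusted p of 0.856 (limma), so none passed the test. Means are over 4 pairs (n = 4) and are given ± the SE of the limma fit to all 8 arrays. That SE is not the spread of the 4 pair ratios. The group that was higher held membrane proteins, a DNA polymerase, a kinase, a nucleoporin and nuclear RNA proteins. KCNK1, a background potassium channel of the plasma membrane, had intensities of 84.1 and 35.03 under control siRNA and 123 and 67.8 under RHA siRNA in polysomes. In cytoplasmic RNA KCNK1 had 37.8 and 23.7 under control siRNA and 70.7 and 29.03 under RHA siRNA. Each polysomal array was above its own partner, while the fractions overlapped between sets and siRNAs. The mean log2 ratio of KCNK1 was 0.93 ± 0.17, or 1.91-fold, with a 95% interval of 0.54 to 1.33 and an unadjusted p of 0.000408.

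IGF1R, the receptor for insulin-like growth factor, read much brighter in set 1 than in set 2, but its ratio had 1 sign in both. Its intensity in polysomes was 519 and 46.04 under control siRNA and 460.4 and 62.5 under RHA siRNA. In cytoplasmic RNA IGF1R read 214 and 31.2 under control siRNA and 279 and 30.05 under RHA siRNA. The pair ratios were 1.28 and 0.56 under control siRNA and 0.72 and 1.06 under RHA siRNA, with a mean of 0.90 ± 0.18 and an unadjusted p of 0.000555, and a second, dimmer probe set of IGF1R was also higher in 4 of 4 pairs. CDKN2AIP encodes a nuclear protein that binds the ARF tumour suppressor protein. It had 168 and 124 under control siRNA and 199.7 and 152 under RHA siRNA in polysomes, against 69.6 and 114 under control siRNA and 89.6 and 71.3 under RHA siRNA in the cytoplasm, with no overlap. Its mean ratio of 0.91 ± 0.23 rested on 3 pairs at 1.09 to 1.27, while the control pair of set 2 had 0.12.

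MN1, a transcriptional coregulator, had the most even ratios of those that were higher. Its polysomal intensities were 39.03 and 39.4 under control siRNA and 28.4 and 43.6 under RHA siRNA. The cytoplasmic ones were 27.3 and 24.4 under control siRNA and 17.1 and 26.5 under RHA siRNA, so the fractions did not overlap, and the lowest cytoplasmic value lies below the limit for testing. The pair ratios ran from 0.52 to 0.73 with a mean of 0.66 ± 0.19. ZNF549, a zinc-finger protein, did not overlap either, with 56.5 and 69.4 under control siRNA and 71.02 and 73.9 under RHA siRNA in polysomes against 28.9 and 48.9 under control siRNA and 48.1 and 43.3 under RHA siRNA in the cytoplasm. Its mean was 0.70 ± 0.19. PSPC1, a protein of nuclear paraspeckles, was the fourth without overlap, with pair ratios of 0.14 to 1.00 and a mean of 0.61 ± 0.18.

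The other 6 genes of this group overlapped between fractions when the arrays were compared across sets and siRNAs, while each was higher in 4 of 4 pairs. RANBP2, a large nucleoporin and SUMO ligase, had a mean log2 ratio of 0.68 ± 0.20 with pair ratios of 0.26 to 1.18, and 2 of its 3 other tested probe sets had the same mean sign. LRIG3, a leucine-rich repeat protein of the membrane, had 0.64 ± 0.18 and pair ratios of 0.46 to 0.79. REV3L, the catalytic subunit of DNA polymerase zeta, had 0.58 ± 0.16, and DMXL2, a large protein linked to the vacuolar proton pump, had 0.58 ± 0.17. HIPK3, a protein kinase, had 0.56 ± 0.16, and its second probe set was also higher in 4 of 4 pairs. CLP1, an RNA kinase of mRNA 3′ end formation and tRNA splicing, had 0.54 ± 0.16.

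The 12 genes that were lower in polysomes held a ribosomal protein, an mRNA-packaging protein, membrane proteins and a mitochondrial carrier. YBX1 encodes Y-box binding protein, which coats mRNA in the cytoplasm and can hold it out of translation. Its polysomal intensities were 4553 and 2498 under control siRNA and 3635 and 3843 under RHA siRNA. The cytoplasmic intensities were 5687 and 4549 under control siRNA and 7372 and 5884 under RHA siRNA. Each polysomal array was below its partner, with pair ratios of -0.32 and -0.86 under control siRNA and -1.02 and -0.61 under RHA siRNA. The mean log2 ratio was -0.71 ± 0.19, or 0.613 of the cytoplasmic level, with a 95% interval of -1.13 to -0.28 and an unadjusted p of 0.0045. A second YBX1 probe set had the same sign.

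JTB, a small transmembrane protein, did not overlap between fractions. It had 1109.9 and 1312 under control siRNA and 1383 and 1620.5 under RHA siRNA in polysomes. In the cytoplasm it had 1806 and 1839 under control siRNA and 2604 and 2379.6 under RHA siRNA, which places the lowest cytoplasmic array above the highest polysomal one. The mean ratio was -0.66 ± 0.16, with pair ratios of -0.91 to -0.49. POPDC3, a membrane protein of the Popeye family that binds cyclic AMP, had 287 and 339.9 under control siRNA and 317 and 390.3 under RHA siRNA in polysomes, against 451 and 475 under control siRNA and 441 and 538 under RHA siRNA in the cytoplasm, with no overlap. Its pair ratios were -0.65 and -0.48 under control siRNA and -0.48 and -0.46 under RHA siRNA, with a mean of -0.52 ± 0.15.

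EBLN2, a gene derived from an ancient bornavirus insertion, had pair ratios of -0.72 and -0.98 under control siRNA and -0.95 and -0.57 under RHA siRNA and a mean of -0.81 ± 0.17. SLC25A51, the mitochondrial carrier of NAD, had a mean of -0.66 ± 0.17 and PKIG, an inhibitor of protein kinase A, had -0.69 ± 0.19. LEAP2, a secreted peptide that acts against ghrelin at its receptor, had -0.55 ± 0.16 with no overlap, and TZMP1 had -0.70 ± 0.19, also with none. DUOXA2, the maturation factor of a dual oxidase, and SYNPO2, an actin-binding protein, did not overlap either, but were under the limit for testing in polysomal RNA. DUOXA2 had pair ratios of -0.92 to -0.32 and SYNPO2 of -0.74 to -0.51. RSBN1, a nuclear protein, was under that limit in polysomes as well, with pair ratios of -1.58 to -0.26.

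**Figure D2:**
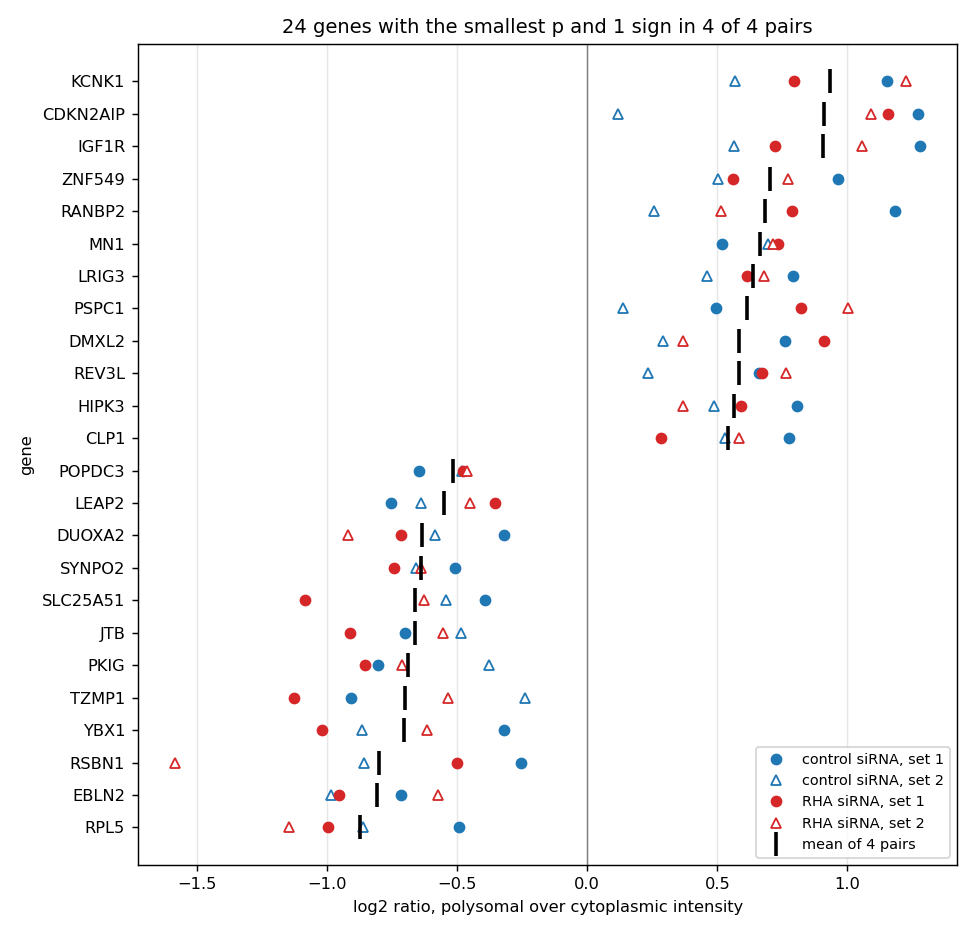
Log2 ratio of polysomal over cytoplasmic intensity in each of the 4 pairs (points; blue control and red RHA siRNA, filled circles set 1 and open triangles set 2) and their mean (black bar) for the 12 genes per direction with the smallest p and 1 sign in 4 of 4 pairs. The means run from 0.54 to 0.93 for the genes that were higher and from -0.52 to -0.88 for those that were lower, and CDKN2AIP shows 1 pair, the control pair of set 2, at 0.12 against 1.09 or more in the others.

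Gene lists were described by how many members had 1 sign in 4 of 4 pairs and by the median log2 ratio, beside the same over all 10106 genes (9.46% higher, 5.65% lower, median 0.071). No member of any list passed the test across all probe sets. The lists were made with earlier results of these data known, and the counts are descriptions without a test. Ribosomal protein, histone and zinc-finger genes have close copies in the genome, so values of single members are uncertain where a probe set can read more than 1 of them. Members named beyond those with the smallest p of their list were picked after their values were seen. After quantile normalization the median of all genes was -0.0088, and those of the mitochondrial ribosomal protein, oxidative phosphorylation, secreted and matrix, plasma membrane, structured leader, selenoprotein, iron and polyamine, and G1 to S lists were below 0 too. After median centring the median of all genes was 0.12, and those of the endoplasmic reticulum and histone lists were above 0. Without the control pair of set 1 the median of all genes was 0.041, and the medians of the lists for translation factors, oxidative phosphorylation, secreted and matrix proteins, the plasma membrane, glycolysis, the cytoskeleton, iron and polyamine control, splicing and structured leaders were below 0, while the histone list went to 0.061.

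Most of the tested messages of cytosolic ribosomal proteins, the proteins of the ribosome that translates nuclear mRNAs, had ratios a little below 0. The list holds 79 genes, of which only 35 had a probe set of 1 symbol, and the rest were not measured here. All 35 were bright enough to test. Their median log2 ratio was -0.098, with 24 below 0 and 11 above. In 4 of 4 pairs 10 were lower (28.6%, against 5.65% of all genes) and 1 was higher (2.86%). The list's median was below 0 in each pair: -0.015 and -0.053 under control siRNA and -0.18 and -0.065 under RHA siRNA, where the median of all genes was 0.098, 0.053, -0.044 and 0.10 in the same order. Without the control pair of set 1 the median was -0.12, and 16 of 35 were lower in 3 of 3 pairs (9.9% of all genes). The count depended on the scaling, since 6 members (17.1%) were lower in 4 of 4 pairs after quantile normalization, with a median of -0.048, and 5 (14.3%) after median centring, with a median of -0.049.

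The members that were lower in 4 of 4 pairs were RPL5, RPL7, RPL30 and RPLP1 of the large subunit and RPS6, RPS9, RPS18, RPS21, RPS26 and RPS28 of the small one. RPL5, which binds 5S ribosomal RNA, had the largest ratio but a dim probe set. RPL5 read 21.5 and 51.8 under control siRNA and 15.1 and 25.9 under RHA siRNA in polysomes, against 30.3 and 94.2 under control siRNA and 30.1 and 57.4 under RHA siRNA in the cytoplasm, so that 1 polysomal array was under the limit of 19.9. Its mean ratio was -0.88 ± 0.19 (unadjusted p 0.00142, adjusted p 0.856, limma). RPS18 was bright: its polysomal intensities were 7045 and 6702 under control siRNA and 7219.7 and 6149 under RHA siRNA, and its cytoplasmic ones were 8303 and 7289 under control siRNA and 9144 and 6873 under RHA siRNA. Each pair was lower by a little, with ratios of -0.24 and -0.12 under control siRNA and -0.34 and -0.16 under RHA siRNA and a mean of -0.21 ± 0.15. RPS6, a substrate of ribosomal S6 kinase, had -0.099, with pair ratios of -0.33 to -0.0095, and RPS28 had -0.23, with -0.39 to -0.043.

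RPL12, which lies at the base of the ribosomal stalk, had the second largest ratio in size but not 1 sign. It had 6643 and 2533 under control siRNA and 5297 and 2915 under RHA siRNA in polysomes, against 6391 and 3674 under control siRNA and 9325 and 5302 under RHA siRNA in the cytoplasm. The pair ratios of RPL12 were 0.056 and -0.54 under control siRNA and -0.82 and -0.86 under RHA siRNA, with a mean of -0.54 ± 0.20. RPS9 had a mean of -0.31 ± 0.18, with most of it from set 1, where the pairs had -0.41 and -0.71. RPL29 had -0.25 ± 0.18, and only 1 of its 2 other tested probe sets had the same sign. The 1 member higher in 4 of 4 pairs was RPS10, with 390.4 and 393 under control siRNA and 225 and 258 under RHA siRNA in polysomes against 267 and 367 under control siRNA and 151 and 181 under RHA siRNA in the cytoplasm. Its mean ratio was 0.43 ± 0.16. Many members were close to no difference: RPL23, RPL17, RPS7 and RPL32 all had mean ratios between -0.017 and 0.022.

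Other parts of the translation apparatus had counts nearer to those of all genes. Of 34 translation factors tested, 26 had a mean ratio above 0, 3 were higher in 4 of 4 pairs (8.82%) and 0 were lower, and the median was 0.10. The pair medians were 0.27 and 0.038 under control siRNA and -0.097 and 0.087 under RHA siRNA, and without the control pair of set 1 the median was -0.0064, with 5 members higher and 4 lower in 3 of 3 pairs. The 3 higher in 4 of 4 were EIF1, EIF2S2 and EIF5B, all of the initiation pathway. EIF5B, which joins the ribosomal subunits, had 349 and 1960.1 under control siRNA and 503 and 1536 under RHA siRNA in polysomes, against 321 and 1276 under control siRNA and 402 and 1021 under RHA siRNA in the cytoplasm. Its mean ratio was 0.41 ± 0.21, and its 3 other probe sets had the same sign. EIF3A, a scaffold of initiation factor eIF3, had 0.33 ± 0.20. Of 60 mitochondrial ribosomal protein genes, 6 were higher (10%) and 1, MRPL11, was lower (1.67%) in 4 of 4 pairs, with a median of 0.057. MRPL30 had -0.37 ± 0.19 and MRPL19 0.36 ± 0.19, the smallest p values of that list.

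Zinc-finger genes, taken as those with a ZNF symbol and mostly encoding DNA-binding regulators, had the largest share of members higher in 4 of 4 pairs among the lists in the deposited scaling. Of 285 with a probe set, 211 passed the filter on dim probe sets and 74 did not. In 4 of 4 pairs 55 were higher (26.1%, against 9.46% of all genes) and 6 were lower (2.84%), and 155 had a mean above 0. The median was 0.17, with pair medians of 0.095 and 0.094 under control siRNA and 0.099 and 0.33 under RHA siRNA. After quantile normalization 35 were higher (16.6%) and 5 lower, with a median of 0.10 against -0.0088 for all genes, and after median centring 62 (29.4%) and 3, with a median of 0.22 against 0.12. Without the control pair of set 1, 74 of 211 were higher in 3 of 3 pairs (15.9% of all genes) and the median was 0.17.

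The single ratios behind this count were modest. ZNF334 had 64.7 and 149 under control siRNA and 60.4 and 113 under RHA siRNA in polysomes, against 48.98 and 114 under control siRNA and 42.3 and 56.6 under RHA siRNA in the cytoplasm, with a mean ratio of 0.58 ± 0.19 and an unadjusted p of 0.0146. ZNF250 did not overlap, with 93.98 and 92.5 under control siRNA and 109 and 112 under RHA siRNA in polysomes against 74.03 and 77.05 under control siRNA and 79.02 and 69.8 under RHA siRNA in the cytoplasm and a mean of 0.44 ± 0.16. ZNF75A had pair ratios of 0.53 and 0.34 under control siRNA and 0.47 and 0.33 under RHA siRNA and a mean of 0.42 ± 0.15. ZNF7 had 0.49 ± 0.20. ZNF684 had 0.56 ± 0.21, most of it under RHA siRNA, where the pairs had 0.74 and 1.20 against 0.25 and 0.032 under control siRNA. The ZNF160 mean of 0.85 was the highest of the list, with pair ratios of 0.29 to 1.65. Of those lower in 4 of 4 pairs, ZNF22 had -0.36 and ZNF24 -0.28.

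**Figure D3:**
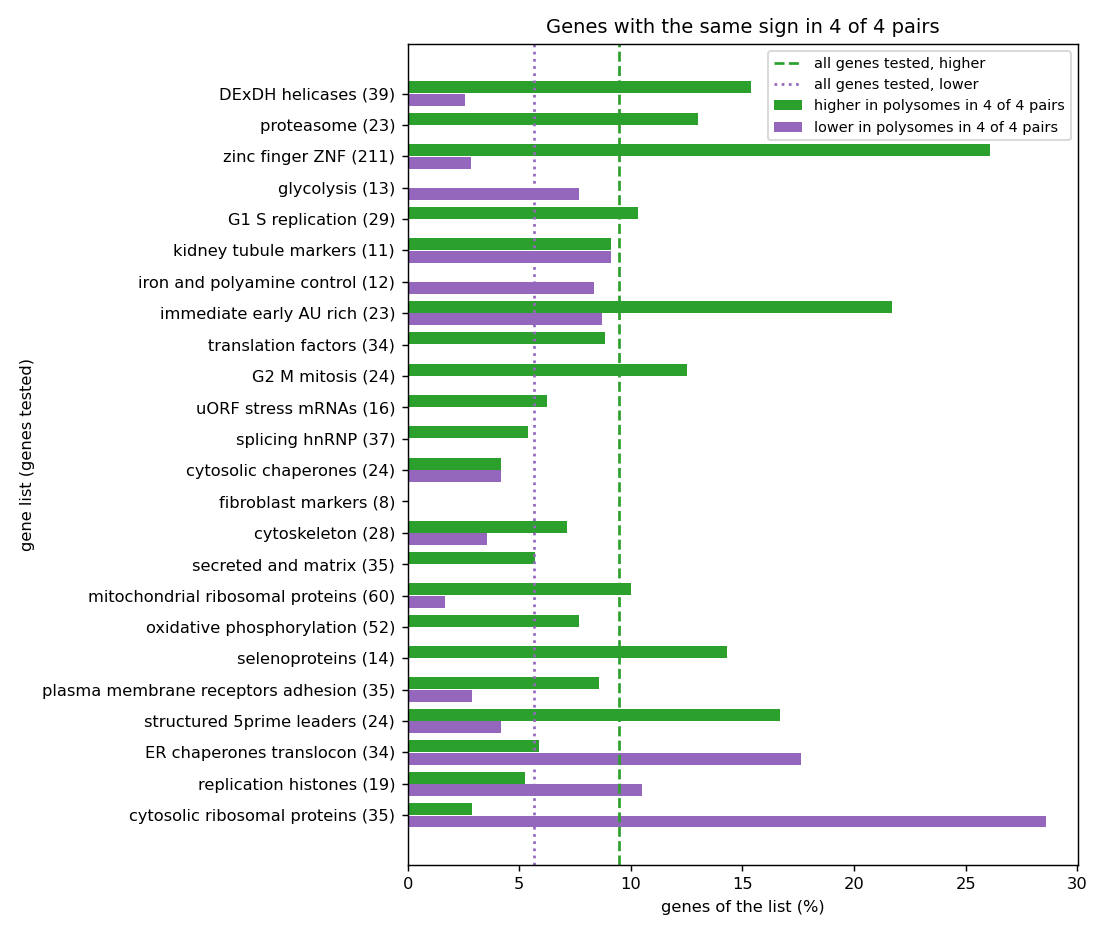
Share of the tested genes of each list (percent, number tested in brackets) that were higher (green) or lower (purple) in polysomal RNA in 4 of 4 pairs, with the shares over all 10106 genes as dashed (9.46%) and dotted (5.65%) lines. The zinc-finger list has 26.1% higher, and the cytosolic ribosomal protein list 28.6% lower; small lists move in steps of several percent per gene.

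DExD/H-box helicases, which unwind RNA and remodel RNA-protein complexes, had the highest median of the lists, 0.26, in the deposited scaling and after median centring (0.31), but not after quantile normalization, where the proteasome list had 0.13 and the helicases 0.12. Of 39 tested, 35 had a mean ratio above 0, 6 were higher in 4 of 4 pairs (15.4%) and 1, DHX37, was lower (2.56%). The pair medians were 0.51 and 0.21 under control siRNA and -0.034 and 0.24 under RHA siRNA, and without the control pair of set 1 the median was 0.12. After quantile normalization 3 members (7.69%) were higher in 4 of 4 pairs. The 6 that were higher were DDX42, DDX46, DDX54, DHX32, DHX57 and DHX58. DDX46, a splicing helicase, had 783 and 540.4 under control siRNA and 752 and 559 under RHA siRNA in polysomes, against 656 and 531 under control siRNA and 525 and 378 under RHA siRNA in the cytoplasm, with a mean of 0.34 ± 0.16, and its second probe set was also higher in 4 of 4 pairs. DDX54, a nucleolar helicase, had 0.43 ± 0.20, but its 2 other probe sets had the opposite sign.

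IFIH1, the cytoplasmic sensor of double-stranded RNA also called MDA5, had the smallest p of the helicases. Its polysomal intensities were 202 and 117 under control siRNA and 164 and 96.4 under RHA siRNA, and its cytoplasmic ones 134 and 119.9 under control siRNA and 103 and 37.6 under RHA siRNA. The mean ratio was 0.65 ± 0.24 (unadjusted p 0.0262, adjusted p 0.856, limma), with the control pair of set 2 at -0.037. YTHDC2, a helicase that binds methylated RNA, had pair ratios of -0.11 and 0.095 under control siRNA and 1.06 and 0.72 under RHA siRNA. DHX9 itself, whose levels are given above, had ratios of 0.56 and 0.48 under control siRNA and -0.42 and 0.082 under RHA siRNA, with a mean of 0.18 ± 0.23.

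Subunits of the proteasome, the protease of ubiquitin-tagged proteins, had a median of 0.18, and 21 of 23 had a mean ratio above 0. In 4 of 4 pairs 3 were higher (13%), PSMB5, PSMB6 and PSMD7, and 0 were lower. The pair medians were 0.51 and 0.16 under control siRNA and -0.18 and 0.16 under RHA siRNA, and without the control pair of set 1 the median was 0.046. PSMB6, a catalytic beta subunit, had a mean of 0.31 ± 0.17, and PSMA7, an alpha subunit, had 0.24 ± 0.16. Cytosolic chaperones, with 24 genes tested, had a median of 0.071. HSPH1, a nucleotide exchange factor for HSP70, had 0.36 ± 0.17 and its 3 other probe sets had the same sign.

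Genes of the secretory pathway's entry into the endoplasmic reticulum included 6 of 34 (17.6%) lower in 4 of 4 pairs and 2 (5.88%) higher, with a median of -0.0092. After quantile normalization 8 (23.5%) were lower and after median centring 5 (14.7%). The 6 were SSR3 and SSR4, subunits of the translocon-associated complex, KDELR2, a receptor that returns resident proteins to the reticulum, the oligosaccharyltransferase subunit DAD1, the HSP70 cochaperone DNAJB11, and MANF, a stress-induced secreted factor. SSR3 had 782 and 571 under control siRNA and 1123 and 1189.7 under RHA siRNA in polysomes, against 988 and 669 under control siRNA and 1934 and 1990.2 under RHA siRNA in the cytoplasm, and each polysomal array was below its partner. Its mean ratio was -0.52 ± 0.19 (unadjusted p 0.0239). KDELR2 had -0.40 ± 0.16, and its 2 other probe sets had the same sign. The 2 that were higher were SRP19, a protein of the signal recognition particle, with 0.20, and SPCS2, of the signal peptidase, with 0.71, where the control pair of set 1 alone had 1.97.

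Secreted and matrix proteins, 35 tested, had a median of 0.060 (-0.051 without the control pair of set 1), and 2 were higher in 4 of 4 pairs (5.71%) and 0 lower. LAMB1, a laminin chain, was 1 of them, with 1043 and 816 under control siRNA and 871 and 865 under RHA siRNA in polysomes, against 873 and 686 under control siRNA and 605 and 563 under RHA siRNA in the cytoplasm and a mean of 0.41 ± 0.17. Receptors and adhesion proteins of the plasma membrane, 35 tested, had a median of 0.046 (-0.046 without that pair), with IGF1R, MET and ITGB8 higher in 4 of 4 pairs (8.57%) and the glucose transporter SLC2A1 lower (2.86%). MET, the receptor of hepatocyte growth factor, had 0.41 with pair ratios of 0.0015 to 0.64. ITGB8, an integrin beta chain, had 159 and 118 under control siRNA and 106 and 90.3 under RHA siRNA in polysomes, against 132 and 116 under control siRNA and 49.1 and 46.1 under RHA siRNA in the cytoplasm. Its ratio was larger under RHA siRNA, with pair ratios of 0.27 and 0.027 under control siRNA and 1.11 and 0.97 under RHA siRNA, and the difference between siRNAs was 0.89 ± 0.32 (SE) with an adjusted p of 0.967 (limma).

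Immediate-early and other short-lived messages with AU-rich 3′ ends, 23 tested, included 5 (21.7%) higher and 2 (8.7%) lower in 4 of 4 pairs, with a median of 0.10. After quantile normalization the higher ones were 2 (8.7%). EGR2, a zinc-finger transcription factor induced by serum, had nearly the same ratio in each pair. It had 109.9 and 193 under control siRNA and 47.8 and 50.8 under RHA siRNA in polysomes, against 83.2 and 137 under control siRNA and 35.9 and 37.7 under RHA siRNA in the cytoplasm, with pair ratios of 0.40 and 0.49 under control siRNA and 0.42 and 0.43 under RHA siRNA. The mean was 0.44 ± 0.19 (unadjusted p 0.0444), but another tested probe set of EGR2 had the opposite sign. MYC, the growth-promoting transcription factor, had 210.0 and 44.3 under control siRNA and 306 and 44.7 under RHA siRNA in polysomes against 95.4 and 40.2 under control siRNA and 274 and 25.9 under RHA siRNA in the cytoplasm. Its mean ratio was 0.56 ± 0.30, with pair ratios of 1.14 and 0.14 under control siRNA and 0.16 and 0.79 under RHA siRNA. ATF3, IER5 and KLF4, also immediate-early genes, had 0.22, 0.26 and 0.22, while NR4A1 and ZFP36L2 were lower in 4 of 4 pairs with -0.19 and -0.15. JUND, an AP-1 subunit whose mRNA is a known translation target of RHA, had pair ratios of 0.84 and 0.46 under control siRNA and 0.15 and -0.094 under RHA siRNA and a mean of 0.34 ± 0.23.

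Messages for growth control whose 5′ leaders are long or folded, 24 tested, had 4 (16.7%) higher in 4 of 4 pairs, BIRC2, IGF1R, MYC and ROCK1, and 1 (4.17%), PDGFA, lower, with a median of 0.022 (-0.053 without the control pair of set 1). IGF2, a fetal growth factor, had a mean of -0.47 ± 0.19, with the control pair of set 2 at 0.019. Messages with upstream open reading frames that respond to stress, 16 tested, had a median of 0.090. Of these SLC7A1, the arginine transporter, was higher in 4 of 4 pairs, with a mean of 0.42 ± 0.18, and IBTK, an inhibitor of Bruton's tyrosine kinase, had pair ratios of -0.076 and 0.034 under control siRNA and 0.99 and 0.73 under RHA siRNA. Selenoproteins, 14 tested, had a median of 0.052, with SELENOW at -0.38 ± 0.19 and SELENOK at -0.28 ± 0.16. GPX2, a glutathione peroxidase, and SELENOS were higher in 4 of 4 pairs, GPX2 with 0.80. Genes of iron and polyamine control, 12 tested, had a median of 0.11, with pair medians from -0.23 to 0.30 and -0.042 without the control pair of set 1, and the ferritin light chain FTL had 0.24 ± 0.24.

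Genes of DNA replication and the G1 to S transition, 29 tested, had a median of 0.12, with 3 (10.3%) higher in 4 of 4 pairs. MCM2, a subunit of the replicative helicase, had 0.32 ± 0.20, and RRM1, the large subunit of ribonucleotide reductase, had 0.31 ± 0.18. Genes of mitosis, 24 tested, had a median of 0.097, with 3 (12.5%) higher in 4 of 4 pairs, CENPF, KIF2C and PTTG1. KIF2C, a kinesin that depolymerises microtubules, had 0.37 ± 0.19. Replication-dependent histones, whose mRNAs end in a stem-loop and mostly lack a poly(A) tail, had 36 members with a probe set, of which 17 were too dim to test. The 19 tested had a median of -0.011, and H4C8, with -0.37 ± 0.17 and pair ratios of -0.49 to -0.31, was 1 of 2 (10.5%) lower in 4 of 4 pairs.

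Splicing factors and hnRNP proteins, 37 tested, had a median of 0.081, with pair medians of 0.32 and 0.11 under control siRNA and -0.34 and 0.045 under RHA siRNA, and -0.022 without the control pair of set 1. SRSF11, a splicing regulator, had a mean of 0.77 ± 0.29, with pair ratios of 1.62 and -0.17 under control siRNA and 0.66 and 0.97 under RHA siRNA. Nuclear-encoded genes of oxidative phosphorylation, 52 tested, had a median of 0.054 (-0.013 without that pair) and mean ratios only from -0.18 to 0.30. COX7A2 and NDUFS1, of complexes IV and I, had 0.24 and 0.22. Cytoskeletal genes, 28 tested, had a median of 0.061 (-0.063 without that pair), and TMSB4X, which binds actin monomers, was lower in 4 of 4 pairs with -0.26 ± 0.16, though its other probe set had the opposite sign. The markers of kidney tubule (11 tested, median 0.12), fibroblasts (8 tested, median 0.068) and leukocytes (4 tested, median -0.14) gave no member past the test. The kidney tubule median was 0.018 without the control pair of set 1, and -0.015 without only the polysomal array of that pair. Of nuclear and noncoding RNAs only H19 had a probe set, with a ratio of -0.29, and the mitochondrial genome list had 0 members with one.

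**Figure D4:**
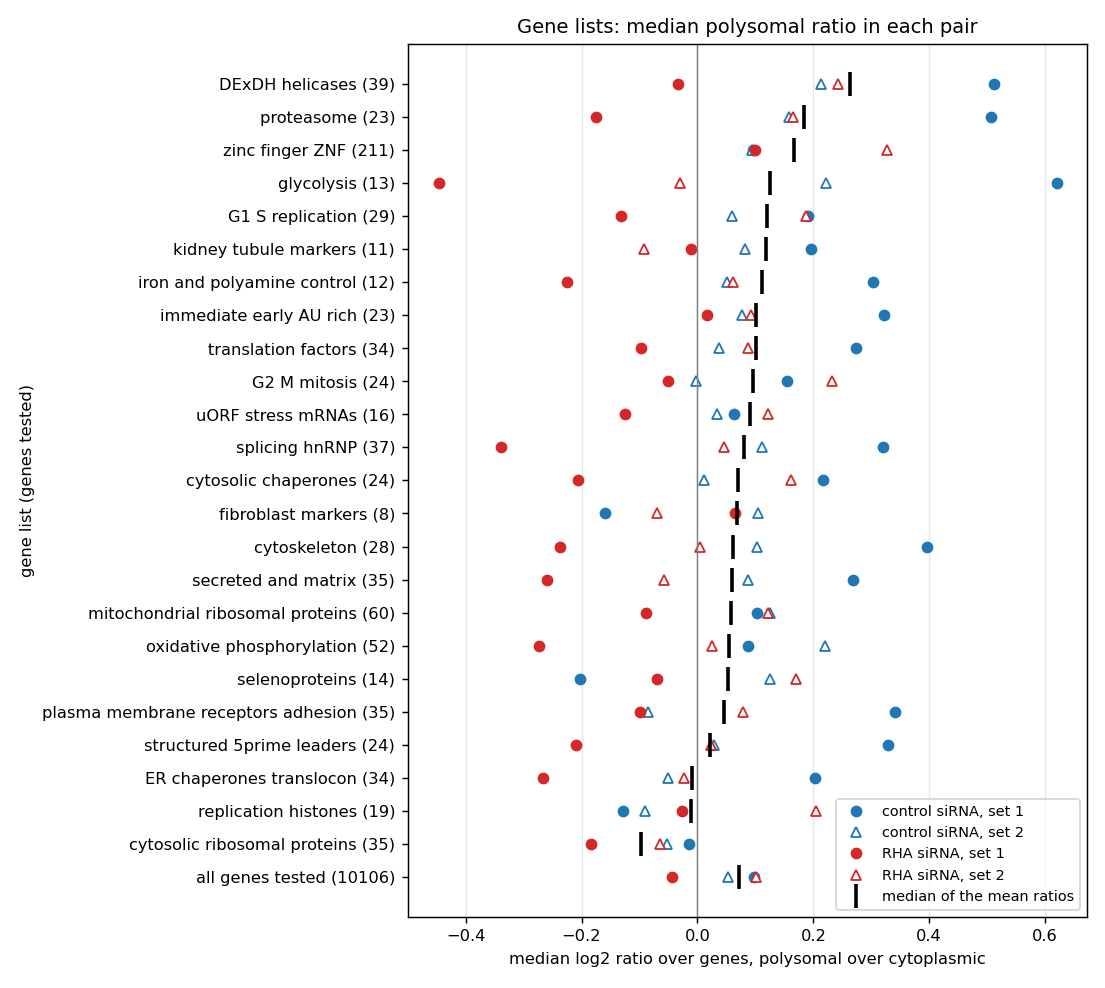
Median log2 ratio of polysomal over cytoplasmic intensity over the tested genes of each list in each pair (blue control and red RHA siRNA, filled circles set 1 and open triangles set 2), with the median of the mean ratios as a black bar and all 10106 genes in the bottom line. The cytosolic ribosomal proteins lie below 0 in all 4 pairs (-0.015 to -0.18) and the zinc-finger genes above 0 in all 4 (0.094 to 0.33), while glycolysis runs from 0.62 to -0.45.

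Some messages had large ratios of opposite sign in different pairs, so that their means say little about any 1 of them. GAPDH, a glycolytic enzyme used as a reference gene, had 2468 and 881 under control siRNA and 1021 and 823 under RHA siRNA in polysomes, against 1139.9 and 641 under control siRNA and 2182 and 1073 under RHA siRNA in the cytoplasm. Its polysomal level was above its partner in both control pairs and below it in both RHA pairs, with ratios of 1.11 and 0.46 under control siRNA and -1.10 and -0.38 under RHA siRNA and a mean of 0.024 ± 0.32. Beta-actin (ACTB) had 1.39 and -0.24 under control siRNA and -0.49 and -0.28 under RHA siRNA, with a mean of 0.096 ± 0.29. Glycolytic enzymes as a list, 13 tested, had pair medians of 0.62 and 0.22 under control siRNA and -0.45 and -0.031 under RHA siRNA, and a median of the mean ratios of 0.13, or -0.21 without the control pair of set 1. COL1A1, a collagen chain, had 381 and 31.4 under control siRNA and 96.4 and 24.3 under RHA siRNA in polysomes against 56.5 and 19.3 under control siRNA and 162 and 44.5 under RHA siRNA in the cytoplasm, with ratios of 2.75 and 0.70 under control siRNA and -0.75 and -0.87 under RHA siRNA. Its set 2 values were dim, and the cytoplasmic control value of 19.3 was under the limit for testing. The difference between siRNAs was -1.53 ± 0.43 (SE) for GAPDH and -2.54 ± 0.64 for COL1A1, each with an adjusted p of 0.967 (limma). Over the same pairs the 3′–5′ difference of the polysomal array changed by -1.53 and 0.32 under control siRNA and by 0.72 and 0.24 under RHA siRNA, and its part in these ratios was not tested.

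Across all probe sets the ratio was not called different between the siRNAs: 0 of 26383 at an adjusted p under 0.05 and 1048 (3.97%) at an unadjusted p under 0.05 (limma, smallest adjusted p 0.967). It was also not called different between the sets, with 0 at an adjusted p under 0.05 and 345 (1.31%) at an unadjusted p under 0.05. These counts do not show that the ratios were the same under both siRNAs.

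The ratio moved with brightness. In the dimmest of 4 equal groups of probe sets, with a mean log2 intensity of 4.32 to 4.95, the median ratio was -0.048, and 4.52% were higher and 11.3% lower in 4 of 4 pairs. In the next group the median was 0.048, with 7.76% and 7.47%. In the third group, from 6.02 to 7.83, the median was 0.15, with 11.4% higher and 2.49% lower, and in the brightest it was 0.11, with 11% and 3.94%. The median mean log2 intensity was 12.1 for the ribosomal protein list, in the brightest group, and 6.14 for the zinc-finger list, in the third.

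Of 3831 genes with at least 2 tested probe sets, 25 had every one of them higher in 4 of 4 pairs and 20 had every one lower. Over all probe sets 8.67% were higher and 6.3% lower in 4 of 4 pairs, so unrelated probe sets would also agree in some genes. Whether the counts exceed that number was not tested, so the agreement of probe sets adds no weight to a single gene here. Those that were higher included IGF1R, HIPK3 and DDX46, described above, and FANCM, the helicase of the Fanconi anaemia pathway, with 0.63 ± 0.22 at its brightest probe set. CEP290, a centrosomal protein of the cilium base, had 0.44 ± 0.23, and PTPN3, a tyrosine phosphatase, had 0.44 ± 0.19. Those that were lower included CASP4, an inflammatory caspase, with -0.67 ± 0.27, and STARD3NL, a tether of late endosomes, with -0.41 ± 0.20. These genes were chosen after their values were seen.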

How the data were processed

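RNA was measured on Affymetrix rhesus arrays, 1 array per sample. The deposited values are probe-set intensities on a linear scale; GCOS and RMA are the tools given in the submitters' processing notes, without version or order, so the normalization is not known in full. Log2 was taken of the deposited intensity, with no further scaling. The probe-level files were not used here. Of 52766 probe sets that are not controls (99 controls were left out), 24956 have 1 gene symbol in the platform annotation, 361 have several and 27449 have none.

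The brighter 50% of probe sets by mean log2 over the 8 arrays (26383) entered a limma fit (limma 3.58.1, R 4.3.3) with terms for siRNA, replicate number and fraction (4 residual degrees of freedom), eBayes moderation and Benjamini-Hochberg adjustment at 0.05. The difference of the ratio between siRNAs and between sets was tested with interaction terms. The script was tested on simulated data. The pairing rests on replicate numbers in the titles. Deviations of same-numbered arrays from their group means correlated at 0.680 to 0.868 between groups. This shows a difference that arrays of a set share, and it does not test which polysomal and cytoplasmic arrays belong together within a set.

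Genes were represented by their brightest probe set. Up to 15 called genes per direction were to be named; since under 5 passed, the 12 with the smallest p and 1 sign in 4 of 4 pairs were named, without LOC symbols and symbols that hold ORF numbers. From each list, members with the smallest p were named (at most 6), with DHX9, JUND, GAPDH and ACTB. The comparison and the lists were chosen with earlier results of these data known. Alternatives were the block, filter, scaling, an offset of 16, eBayes settings, subsets by siRNA or set, left-out arrays and all probe sets of a gene. Arrays give no read depth, and their number limits the precision. A description by protein length was not run.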

Additional observations from a re-analysis of the deposited data

Results flagged for a closer look

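Each value here was picked out either because 1 pair lay far from the other 3, beyond Dixon's 95% limit, or because both control pairs had 1 sign and both RHA pairs the other. Of 111 such checks for a distant pair 7 were past the limit, where chance gives about 1 in 20. The RHA pair of set 1 had 509 probe sets at least 2-fold lower in polysomes, against 135 to 174 in the others. In that pair the mitochondrial ribosomal protein list had a median of -0.088, against 0.10 to 0.13 elsewhere. The zinc-finger list had a median of 0.33 in the RHA pair of set 2, against 0.094 to 0.099 in the others. CDKN2AIP stood at 0.12 in the control pair of set 2, and RPS10 at 0.10 in the same pair. POPDC3 had -0.65 and ACTB 1.39 in the control pair of set 1.

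The signs of the control and RHA pairs were opposite for 3 lists and 3 genes. This was looked for in all 83 named genes and in the larger lists, and signs that fell at random would give it in some of them too. The secreted and matrix list had medians of 0.27 and 0.087 under control siRNA and -0.26 and -0.058 under RHA siRNA. The glycolysis list had 0.62 and 0.22 against -0.45 and -0.031. The kidney tubule list had 0.20 and 0.082 against -0.012 and -0.092. GAPDH had 1.11 and 0.46 against -1.10 and -0.38, and PFKP, a phosphofructokinase, had 1.06 and 0.27 against -0.29 and -0.031. COL1A1 had 2.75 and 0.70 against -0.75 and -0.87. The difference of the list medians between siRNAs was not tested. For the genes the limma test of the difference gave an adjusted p of 0.967 each.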

How the results depend on the processing

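No probe set passed under the fit without the replicate block (0 higher and 0 lower, 95 at an unadjusted p under 0.05), and leaving out any 1 array gave 0 to 0 higher and 0 to 0 lower, with 544 to 2759 at an unadjusted p under 0.05. With a block for each pair 0 were called and 1541 had an unadjusted p under 0.05. Set 2 alone called 3 higher and 15 lower, with 1 residual degree of freedom, and leaving out the control pair of set 1, chosen after seeing the data, called 1 lower with 2. Unadjusted counts, 1165 in the deposited scaling (733 higher, 432 lower), were 360 higher and 571 lower after quantile normalization, 1081 and 281 after median centring, 620 in set 1 alone, 1573 in set 2 alone, 769 under control siRNA alone, 2462 under RHA siRNA alone, 455 in the brighter 25% and 2617 with no filter. Of the named genes' alternative values, 26 changed sign and 1694 did not. The genes named for each direction had been chosen for the same sign in every pair. Their means by siRNA, by set or without the control pair of set 1 average those same-signed ratios and could not change sign. Most other named genes were chosen for a small p. The 1694 thus partly follow from the choice of genes and do not measure how stable the signs are. After quantile normalization GAPDH had -0.047. Under control siRNA alone IBTK had -0.021 and YTHDC2 -0.0079. Under RHA siRNA alone DHX9 had -0.17, GAPDH -0.74, ACTB -0.38, PFKP -0.16, SF3B2 -0.080 and COL1A1 -0.81. DCN had -0.040 in set 1 alone, and ACTB -0.26, KRT18 -0.062 and COL1A1 -0.085 in set 2 alone. With 1 array left out, DHX9 ran from -0.016 to 0.42, GAPDH from -0.31 to 0.37, ACTB from -0.23 to 0.24 and COL1A1 from -0.20 to 0.87, with signs turned where a control array of set 1 was left out (GAPDH -0.19, ACTB -0.23 and COL1A1 -0.034 without the cytoplasmic one) and, for GAPDH, also of set 2 (-0.024 polysomal, -0.15 cytoplasmic). Without the whole control pair of set 1 GAPDH had -0.34, ACTB -0.34, PFKP -0.018 and COL1A1 -0.31. The cause of these changes was not tested. The planned description by protein length was not run. Probe sets dimmer than an intensity of 19.9 were left out of the tests.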

Other observations

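The 2 smallest p values over all 26383 probe sets belonged to probe sets outside the naming rule, chosen after their values were seen. One has no gene listed and had a mean log2 ratio of -1.12. The other is listed as MED6, a subunit of the Mediator complex, and had -1.07 ± 0.16 (mean of 4 pairs, SE of the limma fit). Its pair ratios were -0.97 and -1.22 under control siRNA and -1.22 and -0.85 under RHA siRNA. The brighter probe set of MED6 had a mean ratio of 0.24, so the gene's probe sets had opposite signs. The 3 probe sets called higher in set 2 alone, chosen for their set 2 ratios, were those of DHX30, an RNA helicase of mitochondrial ribosome assembly, CTC1, of the telomere replication complex, and TLN2, a talin, each with a mean of 1.32 there. In the control and the RHA pair of set 1, DHX30 had 1.91 and -0.71, CTC1 had 0.31 and 0.033, and TLN2 had -0.62 and -0.31. Thus 1 of the 3 was also higher in both. Of the 15 probe sets called lower in set 2 alone, 11 were lower in 4 of 4 pairs, and so in both pairs of set 1. Over all 26383 probe sets 8.67% were higher and 6.3% lower in 4 of 4 pairs, but those were not first chosen for set 2. The share of all probe sets with 1 sign in both pairs of set 1 was not counted. Some of the 11, with no gene listed, were under the limit for testing in each array of set 1. In the control and the RHA pair of set 1, BCOR had -0.30 and -1.05, DNAJC1 had -0.087 and -0.47, and LOC710096 had -0.21 and -0.31. DYRK1A had 0.20 and -0.019 there, but was under the limit for testing in each array of set 1. Whether these counts exceed chance was not tested.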
